A study of Bos taurus with 6 samples.

Results

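The inhibitor of DNA binding genes ID1 to ID4 and 6 genes that sense or restrain bone morphogenetic protein (BMP) signals were followed in primary hepatocytes of calves. The 10 genes were taken by their gene names from a count table of 36577 loci, each name matching 1 locus. ID1 was picked for its rise with indole-3-acetic acid, so its values are a description and are not tested; the other 9 were listed for their place in the family or pathway, with results of the comparison already known. All 10 passed the filter on low counts, which 15576 loci passed.

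The hepatocytes came from the livers of fasted, healthy female calves aged 1 day, with a wild-type genotype, and were grown in medium with fetal bovine serum. One group of 3 libraries, PA + 3-IAA, was given the saturated fatty acid palmitate at 400 µmol/L (palmitic acid, PA) together with 3-IAA, the tryptophan derivative indole-3-acetic acid, at 200 µmol/L. The other 3 libraries, PA + DMSO, had the same dose of PA with the solvent DMSO in place of 3-IAA. Every library here was exposed to PA, so each difference is one between 2 PA-treated groups, and how the genes stood in cells without PA was not analysed here. Messenger RNA selected by its poly(A) tail was sequenced, and a library held 16580723 to 22562450 estimated reads. The labels do not tell whether replicates were separate calves or separate dishes, so the p-values measure the spread between these libraries, which may be technical.

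BMPs bind a pair of receptor kinases, a type II receptor such as BMPR2 and a type I receptor such as ACVRL1, and the type I receptor then phosphorylates SMAD1, SMAD5 or SMAD9, which enter the nucleus with SMAD4. The ID genes are among the best known direct targets: ID proteins have a helix-loop-helix domain but no DNA-binding region, and they hold E proteins such as TCF3 away from DNA. SMAD6, SMAD7 and BAMBI are feedback inhibitors that the pathway itself switches on. In mouse liver, BMP2 and BMP6 from endothelial cells drive the iron hormone hepcidin in hepatocytes.

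One library stood apart. On the first principal component of log2 CPM (read counts scaled to the normalised library size) PA + 3-IAA replicates lay at 41.3 to 41.8 and PA + DMSO replicates 1 and 2 at -54.0 and -54.7, whereas PA + DMSO replicate 3 lay at -15.7, between them. Fold changes of the 10 genes and counts of each gene list are therefore also given without that library, as are other named genes whose call changed when it was left out.

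Of the 9 genes other than ID1, 7 were higher in PA + 3-IAA by edgeR's quasi-likelihood test, with a threshold of 0.05 on p-values adjusted by Benjamini and Hochberg. Across all tested genes 25.4% were higher and 25.8% lower by that test (3963 and 4015 genes; 4820 and 3315 with scaling by library total), so the groups differed widely and nothing particular to the 9 genes is read from the count. ID4 and BMPR2 did not pass. The median log2 fold change of the 9 was 0.83, and that of all genes tested was 0.0029. In 8 of the 9 the lowest PA + 3-IAA library lay above the highest PA + DMSO library in CPM, which held for 31.5% of all tested genes. Without PA + DMSO replicate 3 the number higher was again 7 of 9, where 30.9% of all genes were higher and 29.7% lower. Leaving out any single library other than PA + DMSO replicate 3 lowered it, to 3 without PA + 3-IAA replicate 2 and to 4 without each of the rest. With bulk RNA, a change in the share of cells that make a transcript and a change in transcript per cell cannot be told apart.

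**Figure D1:**
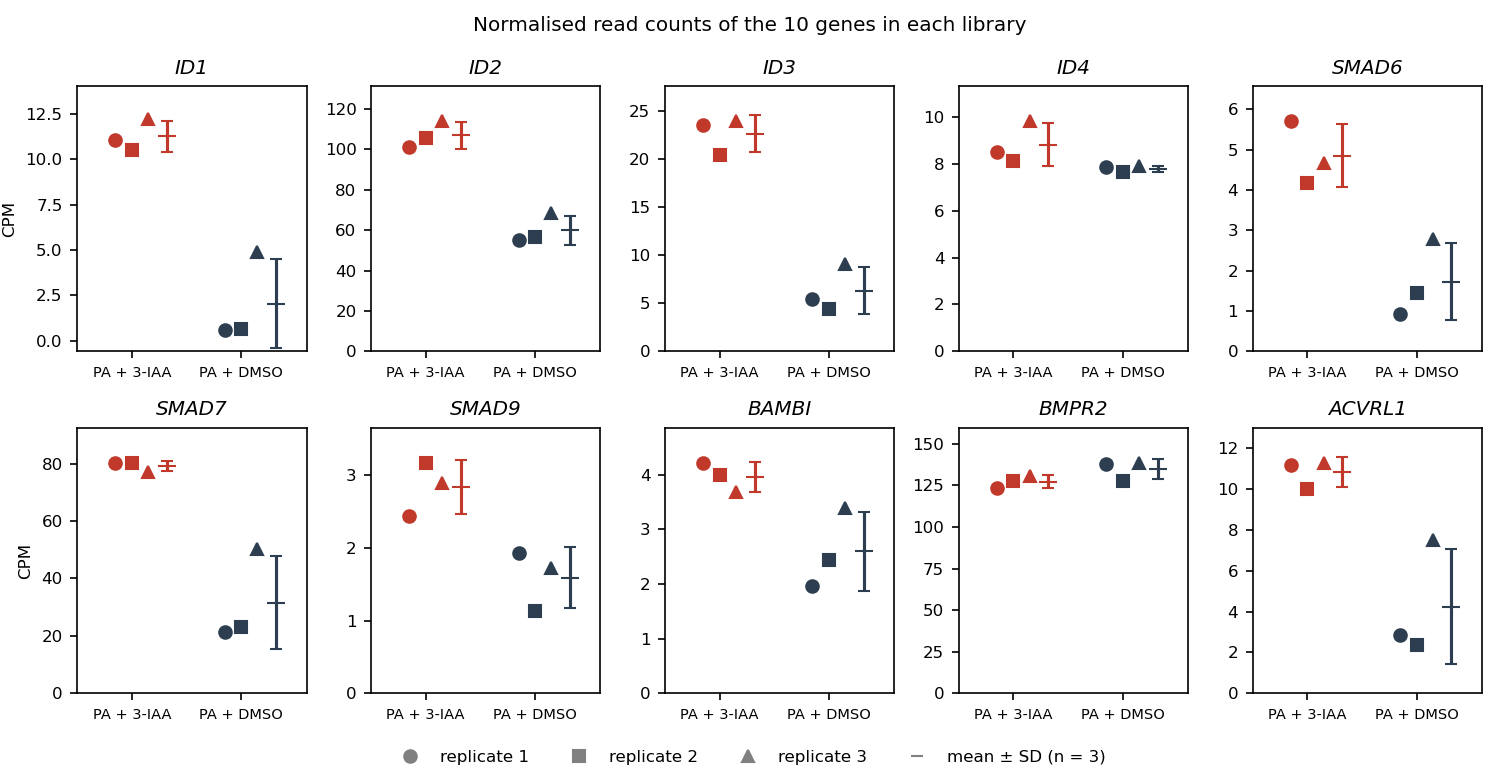
Normalised read counts (CPM, linear axes) of the 10 genes in the PA + 3-IAA and PA + DMSO libraries, with 1 point per library, the shape giving the replicate number, and the bar showing mean ± SD (n = 3). In ID1, SMAD7 and ACVRL1 the triangle of PA + DMSO replicate 3 stands well above replicates 1 and 2 of its group, and in BMPR2 the groups overlap.

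ID1 (ENSBTAG00000016169) keeps E proteins from binding DNA and is the most widely used readout of BMP signalling. It had 11.1, 10.5 and 12.2 CPM in PA + 3-IAA replicates 1 to 3, against 0.592, 0.627 and 4.90 CPM in PA + DMSO replicates 1 to 3. The groups did not overlap, but PA + DMSO replicate 3 was 8.05 times the mean of replicates 1 and 2. These CPM values rest on 229 to 262 reads per PA + 3-IAA library and on 12, 10 and 97 reads in PA + DMSO. The fitted ratio was 5.35 (log2 2.42, SE 0.70), and limma voom put the log2 value at 3.12. The ratio was larger than that of 99.8% of tested genes, but ID1 was picked for its rise, so nothing is read from that rank. It was 18.4 (log2 4.20, SE 0.21) without PA + DMSO replicate 3, and the mean of PA + 3-IAA was 2.30 times PA + DMSO replicate 3 alone. The size of the difference in ID1 thus depended on 1 library. That all 3 PA + 3-IAA libraries lay above all 3 PA + DMSO libraries held for 31.5% of all tested genes. Nothing is read from it in a gene picked for its rise.

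ID3 (ENSBTAG00000030425), like ID1 a partner of E proteins, rose 3.55-fold. Its levels were 23.5, 20.4 and 24.0 CPM in PA + 3-IAA, against 5.43, 4.45 and 9.05 CPM in PA + DMSO. PA + DMSO replicate 3 was again the highest of its group, but lay well below the lowest PA + 3-IAA library. Its log2 fold change of 1.83 (SE 0.23, adjusted p = 0.000581) was 2.18 without that library.

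ID2 (ENSBTAG00000021187), which also restrains E proteins and is widely expressed, was the most abundant of the family and rose 1.78-fold. It had 101, 105 and 114 CPM in PA + 3-IAA, against 55.1, 56.4 and 68.2 CPM in PA + DMSO. The spread within each group was small beside the gap between them. Its log2 fold change was 0.83 (SE 0.09, adjusted p = 0.000121), and 0.94 without PA + DMSO replicate 3. ID2 and ID3 were past the threshold in each alternative fit run.

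ID4 (ENSBTAG00000052562), a family member best known from the nervous system, did not pass the test. Its values were 8.49, 8.12 and 9.83 CPM in PA + 3-IAA, against 7.84, 7.64 and 7.89 CPM in PA + DMSO. The groups did not overlap, yet the nearest libraries of the groups were closer than those within PA + 3-IAA were spread. On the log2 scale the difference was 0.18 (SE 0.11, adjusted p = 0.213), and 0.19 without PA + DMSO replicate 3. Whether ID4 differed from its 3 relatives in response was not tested.

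Among the SMADs, SMAD7 (ENSBTAG00000012441) blocks type I receptors of both the BMP and the TGF-beta branch and recruits ubiquitin ligases to them. It had 80.3, 80.1 and 77.2 CPM in PA + 3-IAA, against 21.3, 23.2 and 50.1 CPM in PA + DMSO. The PA + 3-IAA libraries were nearly equal, and the spread came from PA + DMSO replicate 3. SMAD7 rose 2.50-fold (log2 1.32, SE 0.36, adjusted p = 0.0334), and 3.58-fold without PA + DMSO replicate 3 (log2 1.84). The call was lost without any one of the other 5 libraries, with adjusted p-values between 0.0666 and 0.0939.

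SMAD6 (ENSBTAG00000000625), an inhibitor that acts mainly on the BMP branch, rose 2.80-fold. It had 5.72, 4.18 and 4.66 CPM in PA + 3-IAA, against 0.937, 1.44 and 2.78 CPM in PA + DMSO. Its values in PA + DMSO rest on 19, 23 and 55 reads, so counting error is larger here than for SMAD7. For SMAD6 the log2 fold change was 1.49 (SE 0.33, adjusted p = 0.00565), and 2.06 without PA + DMSO replicate 3.

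SMAD9 (ENSBTAG00000007589), the least abundant of the BMP-activated SMADs in these libraries, rose 1.75-fold. It had 2.43, 3.17 and 2.89 CPM in PA + 3-IAA, against 1.92, 1.13 and 1.72 CPM in PA + DMSO, on 18 to 69 reads per library. Here PA + DMSO replicate 3 lay between the other 2 of its group, unlike in SMAD6 and SMAD7. For SMAD9 the log2 fold change was 0.81 (SE 0.22, adjusted p = 0.0133), and 0.85 without that library. The call of SMAD9 was lost without PA + 3-IAA replicate 2 (adjusted p = 0.0543, the largest of its alternatives).

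At the membrane, ACVRL1 (ENSBTAG00000013843), also called ALK1, is a type I receptor for BMP9 and BMP10 that is known chiefly from endothelium. It had 11.2, 10.0 and 11.3 CPM in PA + 3-IAA, against 2.86, 2.38 and 7.48 CPM in PA + DMSO. PA + DMSO replicate 3 was closer to the PA + 3-IAA libraries than to replicates 1 and 2 of its own group. The rise was 2.51-fold (log2 1.33, SE 0.39, adjusted p = 0.0314), and 4.09-fold without PA + DMSO replicate 3 (log2 2.03). It was lost without any other single library, with adjusted p-values of 0.0623 to 0.0816.

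BAMBI (ENSBTAG00000003045) resembles a type I receptor without the kinase domain and so dampens signalling. It rose 1.52-fold, the smallest of the 7 rises. Its values were 4.22, 3.99 and 3.68 CPM in PA + 3-IAA, against 1.97, 2.44 and 3.39 CPM in PA + DMSO. The lowest PA + 3-IAA library was only just above PA + DMSO replicate 3. The log2 fold change was 0.61 (SE 0.20, adjusted p = 0.0299), and 0.86 without PA + DMSO replicate 3. BAMBI missed the threshold in DESeq2 (adjusted p = 0.0556) and without any single library other than PA + DMSO replicate 3 (adjusted p from 0.0554 to 0.109).

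BMPR2 (ENSBTAG00000006420), the type II receptor, was the most strongly counted of the 10 genes and did not pass the test. It had 123, 128 and 131 CPM in PA + 3-IAA, against 138, 128 and 139 CPM in PA + DMSO, with the groups overlapping. The log2 fold change was -0.08 (SE 0.06, adjusted p = 0.258), and -0.06 without PA + DMSO replicate 3. At 2041 to 2892 reads per library, this was among the most precise estimates of the set.

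**Figure D2:**
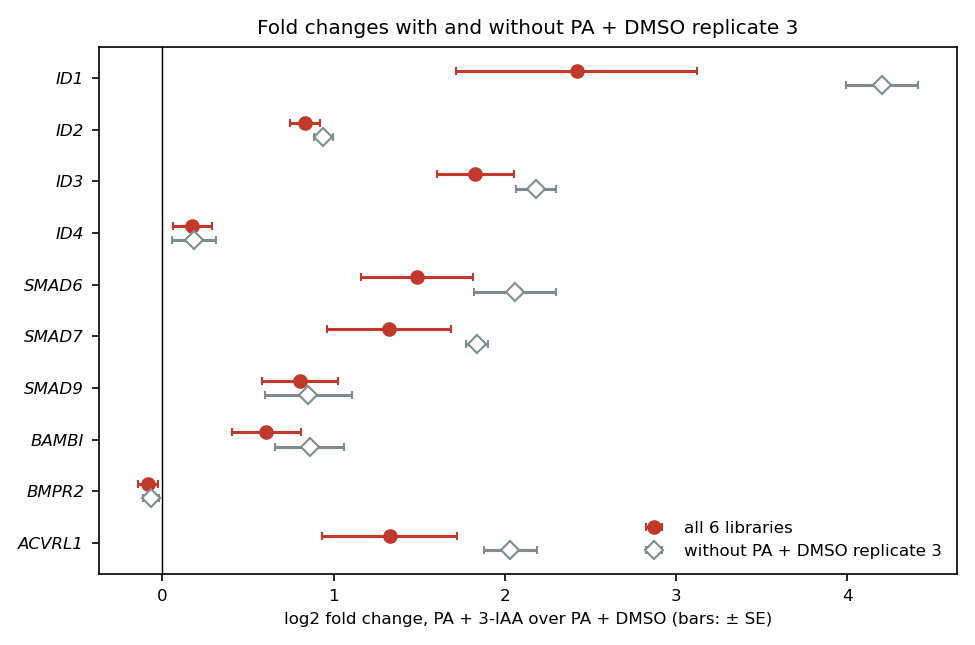
Fitted log2 fold changes of PA + 3-IAA over PA + DMSO (horizontal axis, bars ± SE) for each gene, from all 6 libraries (filled) and without PA + DMSO replicate 3 (open). ID1 moves the most, 2.42 to 4.20, ACVRL1 1.33 to 2.03, and ID4 and BMPR2 stay near 0 in both.

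The authors' deposited table of their own comparison marked 7 of the 9 genes other than ID1 as up, with ID4 and BMPR2 marked stable, and 11.1% of its 13259 genes as up; nothing is read from that count. In the authors' deposited table the log2 fold change of ID1 was 2.47 (SE 0.95) and that of SMAD7 1.33 (SE 0.39). BAMBI had an adjusted p of 0.0345 in the authors' deposited table.

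Levels can be compared between genes in TPM, a read share corrected for transcript length. In PA + 3-IAA the order was ID2 with 176 ± 10.2 TPM, ID3 with 50.1 ± 5.17, SMAD7 with 35.2 ± 0.777, ID1 with 23.8 ± 2.03, BMPR2 with 17.4 ± 0.331, ACVRL1 with 6.22 ± 0.495, ID4 with 4.90 ± 0.514, SMAD6 with 3.37 ± 0.445, BAMBI with 2.49 ± 0.207 and SMAD9 with 2.37 ± 0.271 TPM (SD, n = 3). Among neighbours in that order, the libraries overlapped for BAMBI and SMAD9 and for no other pair. In PA + DMSO, ID2 led with 94.2 ± 11.2 TPM, ahead of BMPR2 with 17.7 ± 0.979, SMAD7 with 13.6 ± 7.0, ID3 with 13.4 ± 5.12, ID4 with 4.16 ± 0.112, ID1 with 4.12 ± 5.00, ACVRL1 with 2.40 ± 1.59, BAMBI with 1.56 ± 0.426, SMAD9 with 1.29 ± 0.365 and SMAD6 with 1.10 ± 0.634 TPM (SD, n = 3). There every neighbouring pair overlapped except ID2 with BMPR2 and ID3 with ID4. ID1 was the fourth in PA + 3-IAA, and its place in PA + DMSO rested on replicate 3. Over PA + DMSO replicates 1 and 2 its mean was 1.23 TPM, below ACVRL1 with 1.495, BAMBI with 1.325 and SMAD9 with 1.245 TPM and above SMAD6 with 0.745 TPM. The place of ID4 is uncertain, since its TPM was 0.239 times what its count and listed length would give, a ratio that ran from 0.669 to 1.27 in the other 9 genes. The summed TPM of the 4 ID genes was 239.9 to 271.6 in PA + 3-IAA, against 102.4 to 140.4 in PA + DMSO.

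**Figure D3:**
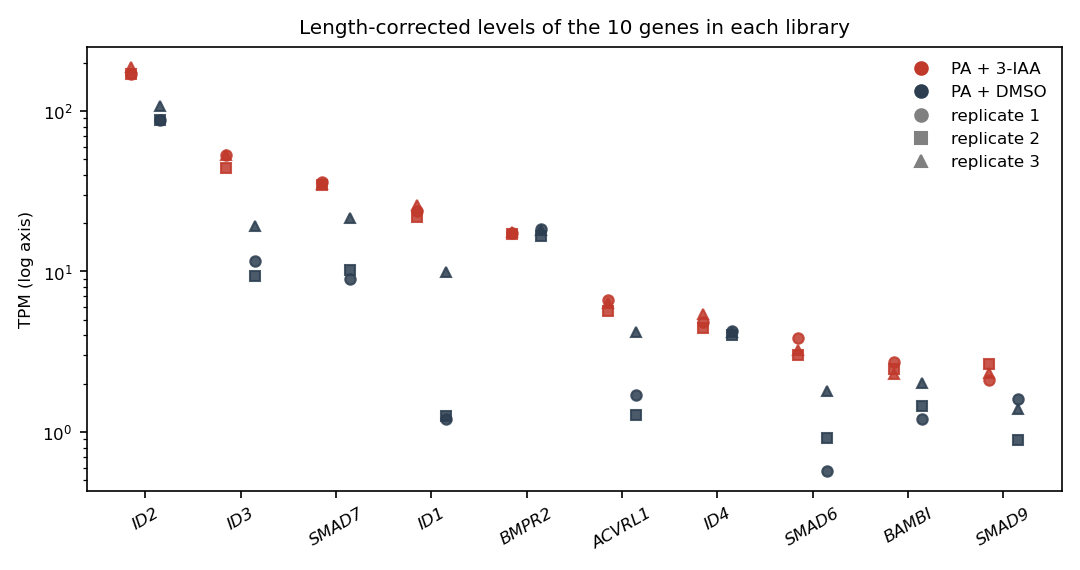
TPM (log axis) of the 10 genes in each library, PA + 3-IAA in red and PA + DMSO in dark blue, the shape giving the replicate number, in the order of the PA + 3-IAA means. ID2 is the highest in both groups, and ID1 spans 1.21 to 9.89 TPM within PA + DMSO.

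PA + DMSO replicate 3 did not sit at the same place for every gene. On the log2 CPM scale (prior count of 2), with PA + DMSO replicates 1 and 2 as 0% and the mean of PA + 3-IAA as 100%, it lay at 70.5% for ID1, 73.9% for ACVRL1, 73.3% for BAMBI, 64.0% for SMAD7 and 60.7% for SMAD6. It lay at 39.9% for ID3, 31.1% for ID2 and 23.3% for SMAD9. For ID4 and BMPR2, which did not pass the test, the values were 14.6% and -99.5%, over a small difference between the groups. Over the 705 genes higher by at least 2-fold the median was 48.9%, with the lowest decile at 19.1% and the highest at 67.1%. The measure was added after the values were seen, and genes on which the PA + DMSO libraries differed more were less likely to enter that set of 705.

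The 5 named genes with the profile closest to ID1 among 10099 with a mean of at least 5 CPM were ENG, ALOX15B, GREM1, EXTL3 and OAS1Y. Pearson's r of log2 CPM over the 6 libraries was 0.9995 for ENG and 0.9991 for OAS1Y, given as a description over libraries that share the treatment split and the library that stood apart. ENG, or endoglin, is a co-receptor that works with ACVRL1. It had 53.1, 53.2 and 54.4 CPM in PA + 3-IAA, against 12.9, 13.8 and 35.9 CPM in PA + DMSO. GREM1, the secreted antagonist gremlin that traps BMP2 and BMP4, had 14.97, 15.5 and 15.8 CPM in PA + 3-IAA, against 0.641, 0.689 and 6.77 CPM in PA + DMSO. The 5 genes were taken for their likeness to ID1, which was picked for its rise, so their fold changes are a description without a test. Log2 fold changes with all 6 libraries were 1.35 for ENG and 2.47 for GREM1. Without PA + DMSO replicate 3 they were 2.01 and 4.53. ALOX15B, a lipoxygenase, had a log2 fold change of 2.22 with all 6 libraries and 3.83 without PA + DMSO replicate 3. For OAS1Y, an interferon-induced gene whose close copies may share reads, the values were 2.06 and 3.14. EXTL3, an enzyme of heparan sulfate synthesis, had a log2 fold change of 0.54, and 0.75 without PA + DMSO replicate 3. Within the 10 genes the correlation with ID1 was 0.996 for SMAD7, 0.995 for ACVRL1, 0.972 for SMAD6, 0.671 for ID4 and -0.398 for BMPR2.

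**Figure D4:**
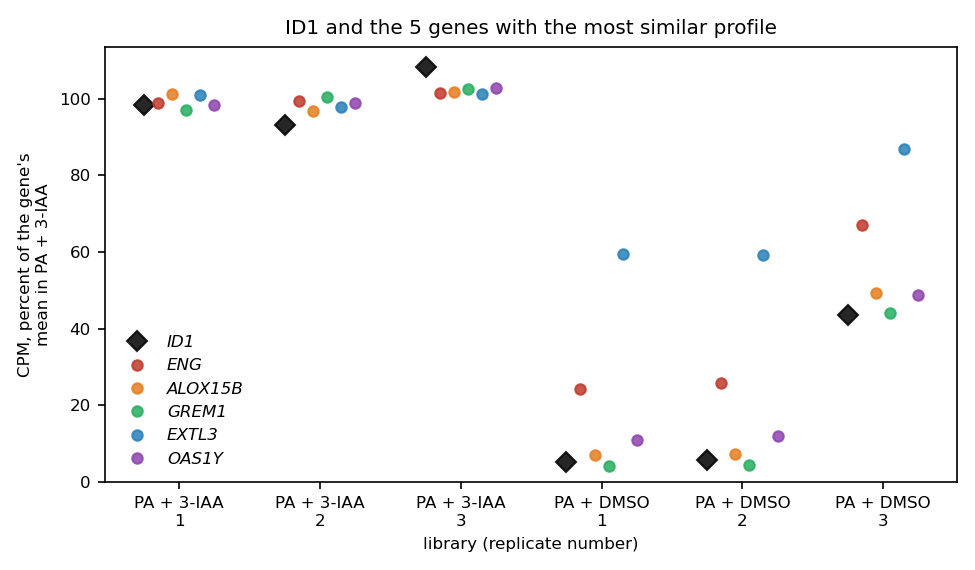
CPM in each of the 6 libraries as a percent of the gene's own mean in PA + 3-IAA, for ID1 (diamonds) and the 5 genes with the highest Pearson's r to it (circles). In all 6 genes PA + DMSO replicate 3 lies above replicates 1 and 2 and below the 3 PA + 3-IAA libraries; ID1 has 4.90 CPM there and ENG 35.9.

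The rest of the pathway was described from gene lists taken by role. Of its 96 tested genes 30 were higher and 27 lower in PA + 3-IAA, with a median log2 fold change of 0.03. Across all tested genes 25.4% were higher and 25.8% lower, and 30.9% and 29.7% without PA + DMSO replicate 3. These shares stand beside the count of each list below, and nothing particular to a list is read from its count alone. Among BMP ligands, 2 of 6 tested members were higher and 2 lower, with a median log2 fold change of 0.02. BMP2, the ligand that with BMP6 controls hepcidin in mice, had 27.1, 28.8 and 27.8 CPM in PA + 3-IAA, against 77.2, 86.2 and 64.0 CPM in PA + DMSO, and fell 2.71-fold (log2 -1.44, SE 0.10, adjusted p = 6.4e-05). BMP10, a ligand of ACVRL1, changed by -0.70 (log2, adjusted p = 0.000255), and BMP4 by 0.41 (adjusted p = 0.00102). BMP6 did not pass (log2 0.21, adjusted p = 0.0878) and was called higher without PA + DMSO replicate 3 (log2 0.23). Whether any of these ligands bears on the values of the ID genes was not tested. Leaving out PA + DMSO replicate 3 gave 3 higher BMP ligands and 2 lower.

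TGF-beta and activin ligands had 2 of 8 tested members higher, 2 lower and a median of 0.18. TGFB1, which signals through SMAD2 and SMAD3, fell slightly (log2 -0.21, adjusted p = 0.011), as did INHBA, the activin A subunit (log2 -0.20, adjusted p = 0.0228). TGFB3 rose (log2 0.34, adjusted p = 0.0122). Leaving out PA + DMSO replicate 3 gave 3 higher and 3 lower, whereas 1 was higher without any one of the other libraries and 1 lower without any of these but PA + DMSO replicate 1.

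The other type I and type II receptors had 3 of 7 tested members lower and 4 that did not pass, with a median of -0.03. ACVR1 and BMPR1A, the type I BMP receptors of hepatocytes, had log2 fold changes of -0.03 (adjusted p = 0.63) and 0.04 (adjusted p = 0.636). The activin and TGF-beta receptors ACVR1B, ACVR2A and TGFBR1 fell by 0.40, 0.49 and 0.26 on the log2 scale (adjusted p = 0.00122, 0.00893 and 0.00488). Leaving out PA + DMSO replicate 3 gave 1 higher and 3 lower.

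Co-receptors and iron sensors had 5 of 8 tested members higher and 1 lower (all tested genes: 25.4% and 25.8%), and a median of 0.48. The counts were 6 and 1 without PA + DMSO replicate 3. TFR2 and TMPRSS6, which tune BMP signalling to iron in hepatocytes, rose (log2 0.49, adjusted p = 0.00158, and log2 0.48, adjusted p = 0.00252). RGMB, a BMP co-receptor, fell (log2 -0.86, adjusted p = 0.000223).

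Secreted antagonists had 2 of 11 tested members higher and 3 lower, and a median of 0.05. Leaving out PA + DMSO replicate 3 gave 4 and 3. FSTL1 and FST, follistatin-type proteins, changed by -0.31 and -0.20 (log2, adjusted p = 0.00357 and 0.0134), and TWSG1, which modulates chordin, by -0.20 (adjusted p = 0.018). Leaving out PA + 3-IAA replicate 1, PA + DMSO replicate 1 or PA + DMSO replicate 2 took away both of the higher calls, and 1 lower call was left when either PA + 3-IAA replicate 1 or 2 was dropped.

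Of the 5 other SMADs, 2 were higher and 1 lower, with a median of 0.0027. SMAD1, which carries the BMP signal, rose (log2 0.32, SE 0.07, adjusted p = 0.0053), and SMAD5, which shares that role, had a log2 fold change of 0.0027 (adjusted p = 0.974). SMAD4, the common partner, fell (log2 -0.55, SE 0.06, adjusted p = 0.000118). SMAD3 of the TGF-beta branch was just past the threshold (log2 0.15, adjusted p = 0.0451). Dropping any library but PA + DMSO replicate 3 left 1 SMAD higher, and dropping that library gave 2 higher and 2 lower.

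Intracellular modulators had 4 of 19 tested members higher and 4 lower, and a median of -0.07. With PA + DMSO replicate 3 dropped they were 7 and 6. MAP3K7, the kinase TAK1, and the SMAD phosphatase PPM1A fell (log2 -0.47, adjusted p = 0.00112, and log2 -0.30, adjusted p = 0.00524). STUB1, a ubiquitin ligase, rose (log2 0.38, adjusted p = 0.00385).

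Targets of BMP signalling other than the 10 genes had 3 of 14 tested members higher and 5 lower, and a median of -0.14, and the counts were again 3 and 5 when PA + DMSO replicate 3 was left out. HAMP, which encodes hepcidin, had 1.07, 1.19 and 1.91 CPM in PA + 3-IAA, against 1.08, 0.752 and 1.16 CPM in PA + DMSO, on 12 to 41 reads. The groups overlapped and the difference did not pass (log2 0.45, SE 0.30, adjusted p = 0.245). ZNF503 and VEPH1 fell (log2 -0.99, adjusted p = 0.000388, and log2 -1.03, adjusted p = 0.00199), as did the Notch and BMP target HES1 (log2 -0.41, adjusted p = 0.0177). The 3 higher members of the list are not named here. Summed over its 16 matched genes, the list had 331 to 368 TPM in PA + 3-IAA, against 193.6 to 251.2 TPM in PA + DMSO. SMAD phosphorylation, the direct measure of BMP signalling, was not part of these data.

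Among bHLH and ETS proteins that ID proteins can bind or act through, 1 of 9 tested members was higher and 6 were lower, with a median of -0.28. Dropping PA + DMSO replicate 3 gave 3 and 6. TCF3, the E protein E2A, did not pass (log2 0.15, adjusted p = 0.0997) and was called higher without that library (log2 0.21). TCF4, another E protein, rose (log2 0.51, adjusted p = 0.00383). HAND2, a bHLH factor that was also listed as a stellate cell marker, and ELK1, an ETS factor, fell (log2 -1.22, adjusted p = 0.000141, and log2 -0.65, adjusted p = 0.000782).

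**Figure D5:**
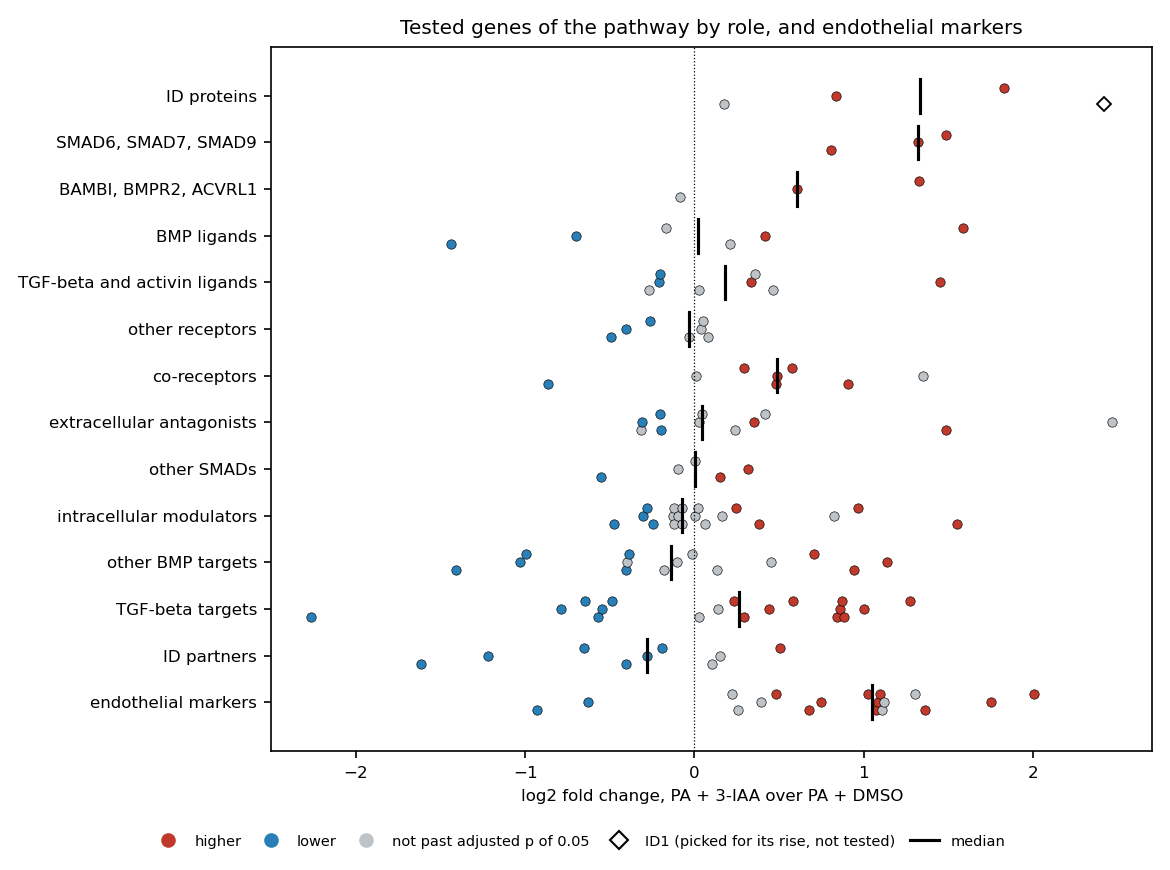
Log2 fold change of PA + 3-IAA over PA + DMSO (horizontal axis) of each tested gene by role, with 1 point per gene, red for higher and blue for lower at an adjusted p under 0.05, grey for the rest, the open diamond for ID1 and a black line for each list's median. The medians of BMP ligands, other receptors and other SMADs lie near 0. Those of TGF-beta and activin ligands, TGF-beta targets and co-receptors lie at 0.18, 0.26 and 0.48, and that of the endothelial markers at 1.05.

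ACVRL1 and ENG are typical of endothelium, so markers of endothelial cells are given beside them. Of 18 tested endothelial markers 10 were higher in PA + 3-IAA, 6 did not pass and 2 were lower (median 1.05), where 25.4% of all tested genes were higher. They were 14 and 2 once PA + DMSO replicate 3 was dropped. Their summed level over 19 matched genes was 123.0 to 138.9 TPM in PA + 3-IAA, against 62.0, 66.5 and 104 TPM in PA + DMSO replicates 1 to 3, so that replicate 3 was again the highest of its group. None of the 19 was at 0 TPM in all 6 libraries, and the sinusoidal marker CLEC4G had at most 3 reads in a library. LYVE1 rose 4.01-fold (log2 2.01, adjusted p = 8.34e-05) and FLT1 less (log2 0.48, adjusted p = 0.0226), KDR did not pass (log2 1.11, adjusted p = 0.061) but did without PA + DMSO replicate 3 (log2 1.64), and ESAM fell (log2 -0.63, adjusted p = 0.000371). Dropping PA + 3-IAA replicate 1 or PA + DMSO replicate 2 left 6 higher, and dropping either PA + DMSO replicate 2 or a PA + 3-IAA library left 1 lower. The part of endothelial cells in the values of ID1, ID3, SMAD6 and ACVRL1 was not tested.

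Hepatocyte markers were abundant and also moved: 13 of 15 tested members were higher (median 0.54), where 25.4% of all tested genes were higher. The count was again 13 when PA + DMSO replicate 3 was left out, where 30.9% of all genes were higher. The summed level of these markers was 34710 to 39310 TPM in PA + 3-IAA, against 24220 to 27030 TPM in PA + DMSO. ALB rose (log2 0.78, adjusted p = 0.000187), as did HNF4A (log2 1.06, adjusted p = 6.4e-05), AHSG (log2 0.49, adjusted p = 0.000903) and TF (log2 0.44, adjusted p = 0.000978), while SERPINA1 did not pass (log2 0.0090, adjusted p = 0.932). Stellate cell and fibroblast markers had 5 of 14 tested members higher and 4 lower (all tested genes: 25.4% and 25.8%), with a median of -0.04. Their summed level was 2927 to 3016 TPM in PA + 3-IAA, against 1726 to 2372 TPM in PA + DMSO. Dropping PA + 3-IAA replicate 2 or 3 or PA + DMSO replicate 2 left 3 of them higher, and dropping PA + DMSO replicate 3 gave 5 higher and 5 lower. In that list ACTA2 and TAGLN rose (log2 1.16, adjusted p = 0.00708, and log2 0.44, adjusted p = 0.0178), PDGFRA fell (log2 -1.24, adjusted p = 6.66e-05) and COL3A1 did not pass (log2 -0.14, adjusted p = 0.11).

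Macrophage markers had 5 of 11 tested members higher, where 25.4% of all tested genes were higher, with a median of 0.28. Their summed level was 141 to 152 TPM in PA + 3-IAA, against 84.9 to 104 TPM in PA + DMSO. CD68, CSF1R and CD14 rose (log2 0.28, 0.48 and 1.66, adjusted p = 0.0175, 0.00732 and 0.034) and VSIG4 did not pass (log2 0.04, adjusted p = 0.592). Dropping PA + 3-IAA replicate 1 left 1 of them higher, PA + 3-IAA replicate 2 or 3 or PA + DMSO replicate 2 left 2, and PA + DMSO replicate 1 left 3, while there were 5 without PA + DMSO replicate 3. Bile duct markers had 4 of 10 tested members higher and 3 lower (all tested genes: 25.4% and 25.8%), with a median of -0.02. The counts were the same without PA + DMSO replicate 3. Their summed level was 1487 to 1539 TPM in PA + 3-IAA, against 762 to 970 TPM in PA + DMSO. There SPP1, CLDN4 and KRT7 rose (log2 0.86, 1.31 and 0.74, adjusted p = 0.00019, 0.00242 and 0.000436), and SOX9 and MMP7 fell (log2 -0.98 and -1.23, adjusted p = 0.000171 and 0.000161). The part of these cell types in the values of the 10 genes was not tested.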

How the data were processed

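Expected counts (estimated reads per gene) and TPM are as the authors deposited them; per the submitters' processing notes, cutadapt 1.9, HISAT2 2.2.1, RSEM and DESeq2 were used, with no role given. Genome build, annotation and strand setting: not given in the sources used here. 2 lines of the count table were empty and not analysed here. From the authors' deposited table of their comparison, the log2 fold changes with SE, the adjusted p-values and the marks were read. The authors' listed length was used only to check TPM.

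Rounded counts were tested in R 4.3.3 with edgeR 4.0.16 (filterByExpr, TMM, two-sided quasi-likelihood test with robust fitting, p-values adjusted over 15576 genes by Benjamini-Hochberg). Each SE was obtained from the log2 fold change and its F statistic. A floor of 3 counts was worth 0.128 to 0.188 CPM by library and covers counting error only. The alternatives were DESeq2 1.42.0, limma 3.58.1 (voom), other scalings and filters, the replicate number as a block and each library left out. The fits were also run on simulated counts with known fold changes and the same dispersion for every gene. No simulated library was set between the groups, so that run does not cover the case of PA + DMSO replicate 3.

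The members and lists were chosen with earlier results of these data known. Of 221 list entries 214 matched a gene name; where a name had more than 1 locus, the one with more counts was used. Named genes were the members; HAMP, SMAD1, SMAD4, SMAD5, BMP2, BMP6, BMPR1A, ACVR1, ENG, HES1 and TCF3; up to 3 members of each pathway list by smallest p; in marker lists the 3 highest in mean TPM and the 2 with the smallest p; and the 5 genes closest to ID1. A gene that the rule takes is not reported here.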

Additional observations from a re-analysis of the deposited data

How the results depend on the processing

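The replicate numbers are not tied to a calf, culture or day by the labels. Deviations from the group means of same-numbered libraries correlated only weakly, at 0.0181, 0.0292 and 0.0222, although each of the 6 libraries correlated best with its own number. With the replicate number as a block, 3722 genes were higher and 3767 lower, against 3963 and 4015 without it, the members higher stayed at 7 of 9, and the other SMADs had 1 higher. The log2 fold change of ID1 was 2.66 with the block and 3.12 in limma voom, against 2.42.

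No fold change of the 10 genes changed sign under any alternative run. ID1 and SMAD6 had no value under the strict filter (CPM of at least 1 in all 6 libraries). Calls were lost with no filter for SMAD7 (log2 1.33) and ACVRL1 (1.34), and by DESeq2 for BAMBI (0.61); for these the cause was not tested. Over the fits with 1 library left out, log2 fold changes ran from 1.94 to 4.20 for ID1, 1.10 to 1.84 for SMAD7, 0.63 to 0.96 for SMAD9, 0.43 to 0.86 for BAMBI and 1.07 to 2.03 for ACVRL1, and the members higher from 3 to 7.

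With no filter, TGF-beta and activin ligands had 1 higher, other SMADs 1 and TGF-beta targets 4. With the strict filter, which tests fewer genes, BMP ligands had 1 higher, antagonists 1, macrophage markers 3, and endothelial markers 1 lower. With scaling by library total, antagonists had 4 higher and 1 lower, ID partners 3 higher and TGF-beta and activin ligands 0 lower. DESeq2 gave 1 higher for other SMADs and 1 lower for endothelial markers. With 1 library left out, the numbers higher and lower ran from 1 to 3 and 1 to 3 for TGF-beta and activin ligands, 0 to 4 and 1 to 3 for antagonists, 1 to 2 and 1 to 2 for other SMADs, and 6 to 14 and 1 to 2 for endothelial markers. The number higher ran from 0 to 1 for other receptors, 3 to 7 for modulators, 4 to 11 for TGF-beta targets, 1 to 3 for ID partners, 3 to 5 for stellate markers and 1 to 5 for macrophage markers. SMAD6, SMAD9, BAMBI and HAMP rest on fewer than 150 reads in each library, which limits the precision of their values.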

Other observations

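Targets of TGF-beta, the sister branch of the pathway, moved in both directions. Of 18 tested members 10 were higher and 6 lower (all tested genes: 25.4% and 25.8%), with a median log2 fold change of 0.26. Leaving out PA + DMSO replicate 3 gave 11 higher and 6 lower, and the number higher was 4 when PA + 3-IAA replicate 2 or 3 was dropped, 5 for PA + DMSO replicate 2 and 6 for PA + 3-IAA replicate 1. TSC22D1, CDKN1A and CCN1, the members with the smallest p, fell (log2 -0.79, -0.54 and -0.65, adjusted p = 7.73e-05, 0.000152 and 0.000204). The genes named next were chosen after their values were seen, so they are a description without a test. The cell cycle inhibitor CDKN2B fell 4.80-fold (log2 -2.26, SE 0.24). SNAI1, a transcription factor of epithelial-mesenchymal transition, rose 2.42-fold.

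A pair of feedback inhibitors of the SMADs outside the 10 genes was also chosen after their values were seen, and is given without a test. PMEPA1 rose 2.93-fold (log2 1.55, SE 0.44) and SKIL 1.96-fold (log2 0.97, SE 0.20). The intracellular modulators as a list had 4 of 19 tested members higher and 4 lower. The ligand TGFB2, chosen likewise, had 176, 173 and 203 CPM in PA + 3-IAA, against 48.4, 47.2 and 106 CPM in PA + DMSO, and rose 2.74-fold. BMP7, chosen likewise, rose 3.01-fold from a low level, with 54 to 68 reads per PA + 3-IAA library and 6 to 30 per PA + DMSO library. In PMEPA1 and TGFB2, as in ID1 and SMAD7, PA + DMSO replicate 3 was the highest of its group. Fold changes of the genes chosen after their values were seen are from all 6 libraries. Their size without PA + DMSO replicate 3 is not given here.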
